A study of Caenorhabditis elegans with 2 samples.

Results

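The genes described here are the spliceosomal and related small nuclear RNA (snRNA) genes of the nematode Caenorhabditis elegans, set against the sites recovered with the nuclear hormone receptor NHR-28. They were taken as every gene of biotype snRNA in the Ensembl annotation of assembly WBcel235 (ce11) whose name does not start with sls-, the prefix of the spliced leader RNA genes. This gave 99 of 129 snRNA genes, or 99 of 46890 annotated nuclear genes. They are short, with a median of 121 bases and a range of 22 to 187, and many are copies, so that the 99 genes hold 74 distinct sequences at 87 loci. Chromosome IV carries 36 of them, V 28, II 13, I 12, III 7 and X 3. A region was counted for a gene when its summit lay within 500 bp of any base of the gene.

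The binding data were chromatin immunoprecipitation sequencing (ChIP-seq) region lists from 2 biological replicates of 1 group. Whole L3 larvae of mixed sex were used, of strain OP317, which carries unc-119(ed3) III and the transgene wgIs317 that supplies NHR-28 with an enhanced green fluorescent protein (eGFP) tag. All animals carried the same mutation and the same transgene, and signal from all tissues is mixed. The antibody is labelled only by its target, nhr-28. There was no second condition, and a possible control experiment named in the labels was not analysed here, so nothing below shows that a signal depends on NHR-28.

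Small nuclear RNAs form the core of the spliceosome, the machine that removes introns from messenger RNA precursors. U1 pairs with the start of the intron, U2 with the branch site, U6 and U4 travel together until U6 enters the catalytic centre, and U5 holds the exon ends, while the SmY RNAs of nematodes are associated with spliced leader trans-splicing. Most snRNAs are made by RNA polymerase II and U6 by RNA polymerase III, from short promoters that carry a proximal sequence element read by the complex SNAPc, and most bind a ring of Sm proteins at a short U-rich site.

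The sequences below are shown because they are genes of 3 snRNA kinds with regions high in the pooled list. They are the annotated genes, read 5′ to 3′ on the gene's strand from the RefSeq sequence of WBcel235. Capitals mark letters known from snRNA biology, which are ACTTACCTG at the 5′ end of U1, AGCTTTGCG at the start of U4 and AATTTTTG, a form of the Sm site. The genes are sup-6 (chrII:12944803-12944967, minus strand), smy-1 (chrIV:9511763-9511839, minus strand) and C52E4.8 (chrV:11980118-11980261, plus strand).
sup-6, U1 letters: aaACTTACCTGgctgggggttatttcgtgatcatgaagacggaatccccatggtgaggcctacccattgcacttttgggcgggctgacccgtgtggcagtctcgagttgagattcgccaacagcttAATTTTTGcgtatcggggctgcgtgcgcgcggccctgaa
smy-1, an SmY RNA by name: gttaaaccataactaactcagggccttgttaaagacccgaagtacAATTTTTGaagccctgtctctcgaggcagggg
C52E4.8, U4 letters: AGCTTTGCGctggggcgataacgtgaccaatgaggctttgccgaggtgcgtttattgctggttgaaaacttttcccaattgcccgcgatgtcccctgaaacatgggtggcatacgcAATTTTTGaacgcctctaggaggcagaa

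Next come the 100 bases before the annotated start of the same 3 genes, of F38E11.10 (a U5 gene, chrIV:9444642-9444763, plus strand), of W05B2.8 (a U6 gene, chrIII:10989679-10989780, plus strand) and of F08G2.10 (a U2 gene, chrII:13829305-13829491, minus strand), shown because a word recurs there. Capitals mark CGGAACCC or CGAAACCC, which were found before sup-6, smy-1, F38E11.10 and W05B2.8. Neither word was found in this window before C52E4.8 or F08G2.10.
sup-6, before the start: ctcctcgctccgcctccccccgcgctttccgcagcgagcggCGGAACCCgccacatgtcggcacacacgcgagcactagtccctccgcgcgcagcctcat
smy-1, before the start: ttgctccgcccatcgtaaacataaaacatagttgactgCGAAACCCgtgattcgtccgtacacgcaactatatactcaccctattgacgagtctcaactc
F38E11.10, before the start: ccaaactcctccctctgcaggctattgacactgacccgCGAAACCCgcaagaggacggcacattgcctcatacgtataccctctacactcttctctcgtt
W05B2.8, before the start: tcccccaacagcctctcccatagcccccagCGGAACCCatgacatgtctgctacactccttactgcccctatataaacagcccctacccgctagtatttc
C52E4.8, before the start: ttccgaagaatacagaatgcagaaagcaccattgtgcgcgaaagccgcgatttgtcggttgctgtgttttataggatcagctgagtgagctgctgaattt
F08G2.10, before the start: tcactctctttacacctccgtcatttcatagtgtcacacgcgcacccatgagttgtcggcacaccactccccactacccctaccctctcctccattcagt

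In each single list a minority of snRNA genes lay near a candidate region, and a few of these regions were among the strongest of the data set. In the pooled list, called on the reads of both replicates together and holding 20876 regions, 31 of the 99 genes (31.3%) had a summit within 500 bp, against 38.2% of all nuclear genes. The replicate 1 list of 30000 regions reached 39 genes (39.4%, against 46.8% of all genes) and the replicate 2 list of 30000 regions reached 38 (38.4%, against 48.1%). In all 3 lists at once, 19 genes (19.2%) had a region, against 23.8% of all genes. The final list, which holds the 162 pooled regions that passed the authors' test of reproducibility between replicates, reached 3 genes (3.03%), against 0.535% of all genes. A share above that of all genes was not particular to these snRNA genes. The final list reached 13.3% of sls- genes, 2.31% of snoRNA genes and 1.47% of tRNA genes.

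The direction of the comparison with all genes turned with the way of counting. All nuclear genes have a median length of 196 bp and protein-coding genes one of 2027 bp, so a window around the whole gene covers more sequence for long genes. When the summit had to lie within 500 bp of the annotated 5′ end, 29.3% of snRNA genes and 23.8% of all genes had a pooled region, and 18.2% of snRNA genes and 10.1% of all genes had one in all 3 lists. Counted by their 5′ end in all 3 lists, other short kinds varied. The share was above that of snRNA genes for the 30 sls- genes (36.7%), the 612 tRNA genes (25.2%) and the 346 snoRNA genes (22.5%). It was below for miRNA genes (14.9%), ncRNA genes (10.4%), piRNA genes (10%) and the 20 rRNA genes (5%). The candidate lists were made to include background, and q values in the pooled list reach 0.961, so a weak candidate near a gene is not a binding call. Read depth is unknown because the lists give no counts.

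**Figure D1:**
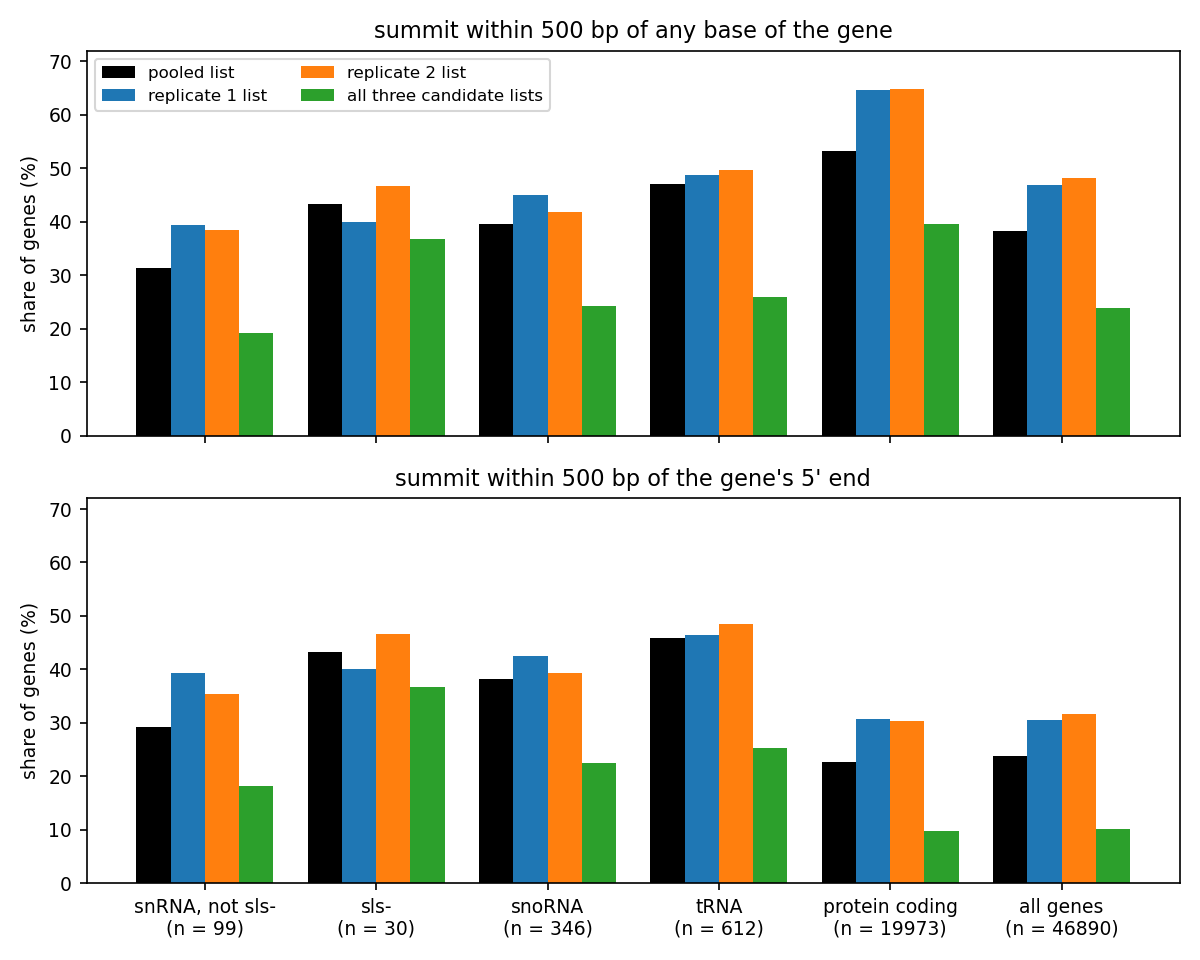
Bars give the share of genes (%) with a summit within 500 bp of any base of the gene (top) or of its 5′ end (bottom), for snRNA genes other than sls-, sls-, snoRNA, tRNA and protein-coding genes and all genes, in the pooled list, each replicate list and all 3 at once. The snRNA genes stand below all genes in the top panel (31.3% against 38.2% in the pooled list) and above them in the bottom panel (29.3% against 23.8%).

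The 99 genes fell into 5 patterns over the lists. A region in the pooled and both replicate lists was found for 19 genes, in the pooled list without both replicates for 12, in both replicates without the pooled list for 4 and in a single replicate list for 22. The remaining 42 genes had no region in any of these lists. Each list was searched on its own, so the regions counted for 1 gene need not overlap between lists. At F07C6.5 the strongest summits stood at 202 bp (pooled), 60 bp (replicate 1) and -455 bp (replicate 2) from the 5′ end. F08H9.10 was not among the 19, its nearest replicate 1 summit being 676 bp away, though its pooled region overlapped a region in each replicate list. The genes nearest to the 500 bp limit on the inside were ZK897.2 (447 bp from the summit), F08H9.10 (448 bp) and smy-9 (471 bp), and those on the outside were W04G5.11 (511 bp), smy-4 (561 bp) and K03B8.10 (592 bp).

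The regions near snRNA genes included more top-ranked ones than the pooled list as a whole. There were 39 distinct pooled regions near the 31 genes, with a median signal of 14.4 (exact 95% interval of the median 12.3 to 18.8), against 13.1 over all pooled regions. Of the 31 genes, 10 have several of these regions, so the 39 are not independent sites, while the interval treats them as such. The signal is the authors' value per region and its scale is not stated, so it ranks regions within a list only. Among the 39 regions, 18 (46.2%) were in the strongest 5000, against 24% of all regions, and 10 (25.6%) in the strongest 1000, against 4.79%. These 10 belong to 8 genes, since sup-6 and smy-1 have a pair each. The regions near snRNA genes had a median GC content of 38.5%, against 33.5% for all pooled regions, and the part of base composition in their ranks was not tested.

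The strongest region near any snRNA gene lay at sup-6, a U1 gene in an intron of F58G1.7. It ranked 32 of the pooled list with a signal of 61.8 and a q value of 0.00592, and it was also rank 53 in replicate 1 (signal 21.6) and rank 32 in replicate 2 (signal 42). It spans chrII:12944587-12944926 with its summit at 12944757, just past the 3′ end of the gene. A second region, rank 219 with a signal of 30.1, has its summit at 12944956, inside the first bases of the gene. No protein-coding start was close, the nearest being that of F58G1.7 itself 3501 bp away. The gene was therefore high in all 3 lists without a protein-coding promoter at hand.

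The SmY gene smy-1 was next, with a pooled region of rank 68 and a signal of 43.2 (chrIV:9511259-9511598). It was rank 218 in replicate 1 (signal 14.1) and rank 78 in replicate 2 (signal 28.8). Its summit lay beyond the 3′ end of smy-1, 410 bp from the 5′ end, and 219 bp upstream of the start of C33A12.3, so the region also counts as a promoter region of that gene. A second region on the other side of smy-1 ranked 589 with a signal of 23.6.

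The U5 gene F38E11.10 was the only other snRNA gene near a region of the final list. Its pooled region (chrIV:9444514-9444853) ranked 159 of the 162 regions kept, with a signal of 33.0, and its summit lay inside the gene, 42 bp from the 5′ end. The replicates differed here, with rank 82 and a signal of 18.1 in replicate 1 and rank 1139 and a signal of 15.7 in replicate 2. The summit lay 644 bp upstream of F38E11.9, within that gene's promoter window. Here a promoter window runs from 1000 bp before to 500 bp after any protein-coding start.

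Just below the final list stood genes of 3 further snRNA kinds. The U6 gene W05B2.8, in an intron of the dynein heavy chain gene dhc-4, had pooled rank 180 (signal 31.7, chrIII:10989596-10989935), rank 1065 in replicate 1 (signal 10.4) and rank 363 in replicate 2 (signal 19.2), with the summit inside the gene in the pooled list and in both replicates. The U2 gene F08G2.10 had pooled rank 217 (signal 30.2, chrII:13828957-13829296), rank 624 in replicate 1 (signal 11.5) and rank 166 in replicate 2 (signal 22.8), and its summit also lay 430 bp upstream of the histone H3 gene his-42. The U4 gene C52E4.8 had pooled rank 423 (signal 25.3, chrV:11979926-11980265), rank 282 in replicate 1 (signal 13.5) and rank 2159 in replicate 2 (signal 14.1). The pooled region covers C52E4.8, and its summit lay 22 bp before the start of C52E4.8 and 373 bp upstream of snr-4, which encodes the Sm protein SmD2. The strongest summit stood at -23 bp from the 5′ end in replicate 1 and at 175 bp in replicate 2. An snRNA gene and the gene of a protein that binds snRNAs therefore share the pooled region, and the list cannot assign it to one of them.

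A second U5 gene, F42C5.12 on chromosome IV, held pooled rank 517 (signal 24.2) with nearly equal replicate ranks of 2006 and 1775, and its summit lay inside the gene. Ranks of 1038 to 4892 were held by F08H9.11 (U1, rank 1038), F32B5.9 (U5, rank 1105), F54D8.7 (U6, rank 1973), T08G5.11 (U1, rank 2477), F08G2.11 (U2, rank 3203) and sup-39 (U1, rank 4892). In the replicate lists these genes stood between ranks 651 and 3054 in replicate 1 and between ranks 2271 and 7133 in replicate 2. The entry mir-1831, a stretch of 22 bases annotated as snRNA inside sup-39, takes the same regions and is no separate observation. The last 5 genes of the 19, H27M09.6, F38E11.11, F07C6.5, T08B6.62 and B0213.22, had pooled ranks of 11441 to 19243 and signals of 12.7 to 10.7. With mir-1831 left out, 13 of the 18 genes in all 3 lists had a pooled region among the strongest 5000, and these 5 did not. Of the 12 genes in the pooled list without both replicates, 1 had such a region. The pooled list is called on the reads of both replicates, so this contrast is partly built in by the choice of genes.

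**Figure D2:**
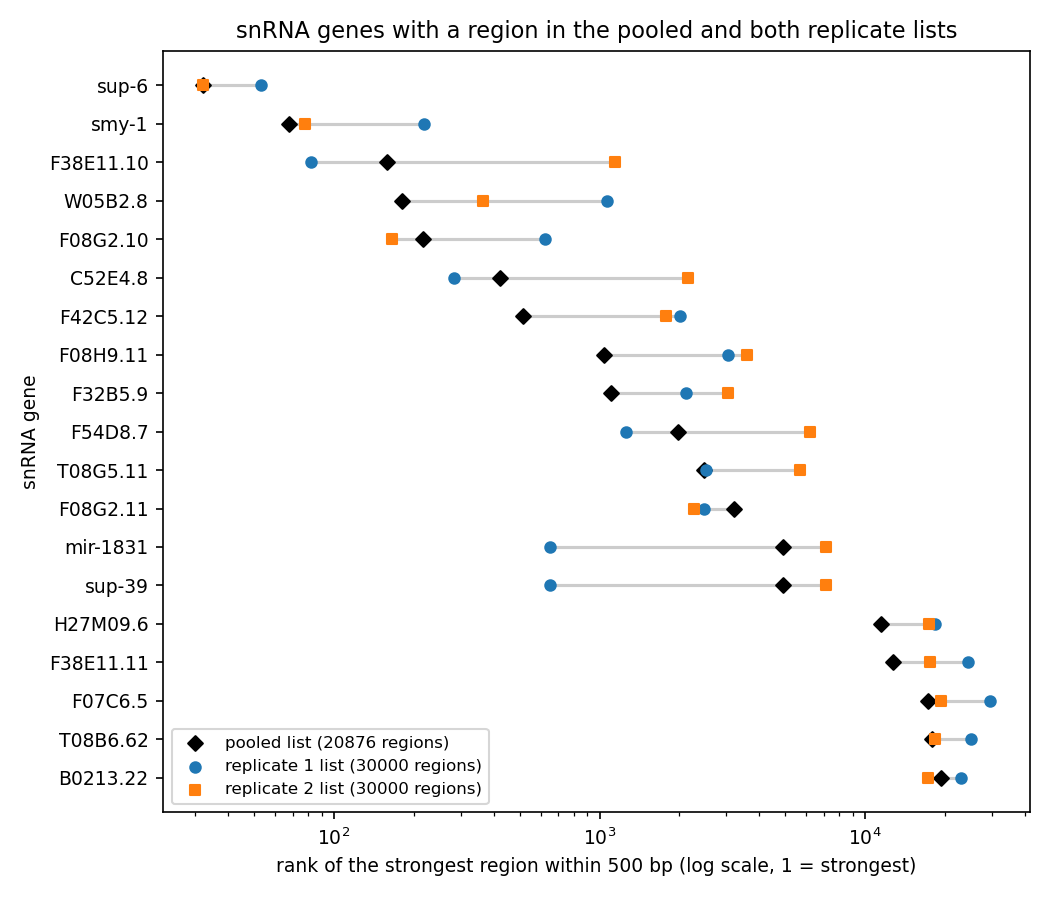
Each row is 1 of the 19 snRNA genes with a region in all 3 lists, and points give the rank of its strongest region within 500 bp (log scale, 1 is the strongest) in the pooled list (diamonds), replicate 1 (circles) and replicate 2 (squares). Ranks run from 32 at sup-6 to 19243 at B0213.22 in the pooled list, and C52E4.8, F38E11.10 and sup-39 stood higher in replicate 1 than in replicate 2.

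The replicates ordered these genes much alike by their strongest nearby regions, which were not always at the same site. In replicates 1 and 2 the summits stood at 23 and 595 bp from the 5′ end at F54D8.7 and at 4 and 495 bp at sup-39. At W05B2.8 they stood at 87 and 86 bp. Over 18 genes, with mir-1831 left out, Spearman's rho of the ranks was 0.87 between the replicates, a description of genes that had been chosen for a region in every list. The pooled ranks share their reads with both replicates and had rho values of 0.88 with replicate 1 and 0.94 with replicate 2. The rank was better in replicate 1 for 7 genes and in replicate 2 for 11. Outside these genes, 4 had a region among the strongest 5000 of 1 replicate and none within 500 bp in the other. They were smy-8 (rank 297 in replicate 1, nearest replicate 2 summit 1824 bp away), ZK897.3 (rank 3626 in replicate 1), R07E5.16 (rank 280 in replicate 2, nearest replicate 1 summit 574 bp away) and M163.13 (rank 4787 in replicate 2).

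Each chromosome had a different leading gene. The best pooled ranks were 1105 on I (F32B5.9), 32 on II (sup-6), 180 on III (W05B2.8), 68 on IV (smy-1), 423 on V (C52E4.8) and 7260 on X (M163.13). Chromosome II had 5 of its 13 genes in all 3 lists, of which sup-39 and mir-1831 are 1 site, and chromosome X had none of its 3. Chromosome IV, with 36 genes, had 13 in the pooled list and 6 in all 3, and chromosome V, with 28, had 6 and 4.

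Grouped by their own sequence, U1 and U5 genes had the highest shares with a region in the pooled list and in all 3 lists. In replicate 1 this did not hold for U1, with 38.5%, against 66.7% for U5, 50% for SmY, 41.7% for U6 and 40% for U4. Groups were built by alignment at 80% identity over 80% of the shorter gene and then named by the letters given above for U1 and U4, GTAGTATCT for U2, GCCTTTTAC for U5 and ACAGAGA for U6, so a group can include a copy that has lost the letters. Of 13 U1 genes, 7 had a pooled region, 5 had a region in all 3 lists and 1 was near a final region. The 13 include T27E4.12 and T27E4.22, which overlap on the same strand and had no region in any list. Of 12 U5 genes, 6 had a pooled region, 5 had one in all 3 lists and 1 was near a final region.

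The other groups had lower shares in the pooled list and in all 3 lists. Of 20 U2 genes, 4 had a pooled region and 2 a region in all 3 lists. Of 24 U6 genes, 6 had a pooled region and 3 a region in all 3 lists. Of 10 SmY genes the counts were 3 and 1, and of 5 U4 genes they were 1 and 1, so in both groups a single gene, smy-1 or C52E4.8, was in all 3 lists. The 15 genes with none of these letters or names had 4 and 2, mir-1831 among them. The U6 genes T20D3.12 and T20D3.13, both among the 6, overlap and take the same pooled region (rank 19619). Differences between the groups rest on few genes and were not tested.

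**Figure D3:**
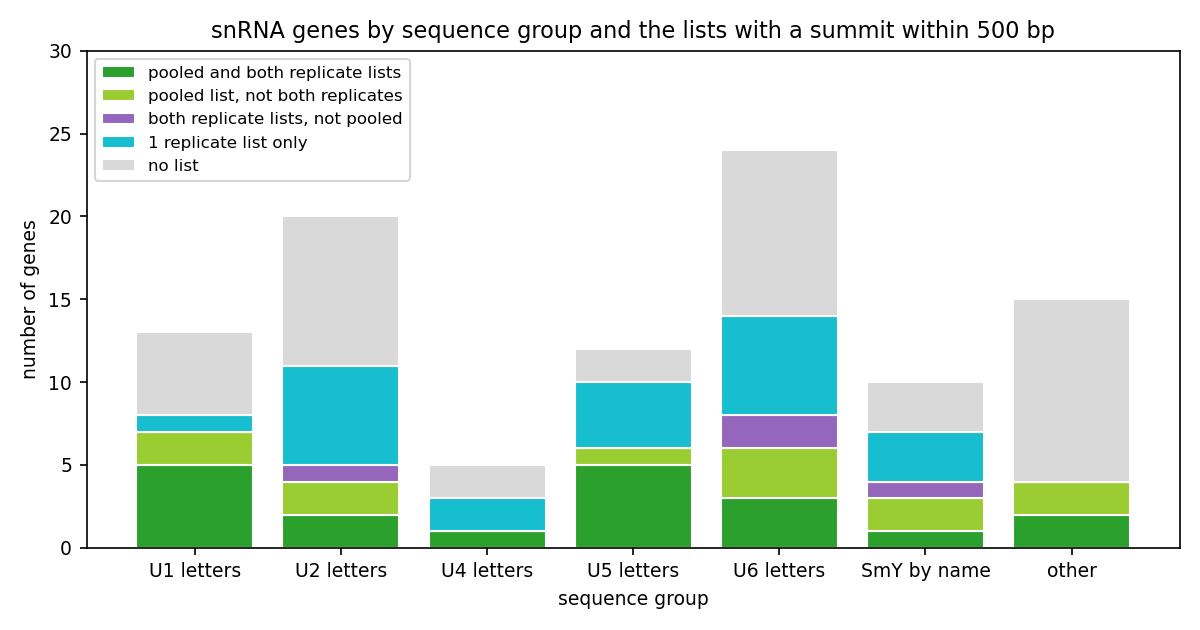
Stacked bars count the 99 snRNA genes by sequence group, split by the lists that have a summit within 500 bp. The green segment at the base, a region in the pooled and both replicate lists, holds 5 of 13 U1 and 5 of 12 U5 genes, against 2 of 20 U2 and 3 of 24 U6 genes.

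Some copies with the same sequence had very different regions. The U5 genes F38E11.10 and F38E11.11 (chrIV:9464517-9464638, minus strand) are identical over all 122 bases, yet their pooled ranks were 159 and 12710. Their 100 bases before the start share 30 positions, aligned without gaps. The U5 genes F07C6.5 and ZK897.2 are also identical and share 88 of these 100 positions. Both had weak pooled regions, of ranks 17251 and 20522. The U6 sequence of W05B2.8 occurs in 14 genes, and 2 of these had a pooled region, namely W05B2.8 and R07E5.16 (rank 965). Another copy, C28A5.7, had a region in both replicates (ranks 5483 and 19811) and none in the pooled list. The U1 genes sup-6 and sup-39 match at 161 of 164 aligned bases (98.2%) and had pooled ranks of 32 and 4892.

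Shares were compared between genes with and without an identical copy. Of the 32 genes that share their sequence with another member, 11 (34.4%) had a pooled region and 8 (25%) had one in all 3 lists. Of the 67 genes with a sequence of their own, 20 (29.9%) had a pooled region and 11 (16.4%) had one in all 3 lists. The first share joins unlike classes, since pooled regions were near 5 of the 8 genes in identical pairs, 2 of the 3 U6 genes of an identical triple, 2 of 7 identical U2 genes and 2 of the 14 identical U6 genes. How reads that fit several copies were handled is not given in the sources used here, and its part in these counts was not tested.

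Summits lay on either side of the genes and were not confined to the start. Of the 31 genes with a pooled region, the strongest summit was before the start in 10, inside the gene in 5 and past the 3′ end in 16, with a median position 202 bp downstream of the 5′ end. In replicate 1 the median was 40 bp downstream, with 10 of 39 summits inside the gene, and in replicate 2 it was 192 bp, with 5 of 38 inside. These medians are over different sets of genes. Of genes in both lists, sup-6 had its summit at 232 bp in replicate 1 and 215 bp in replicate 2, W05B2.8 at 87 and 86 bp and F42C5.12 at 36 and 33 bp, while F38E11.10 had it at 40 and 188 bp.

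At U1 genes most of the strongest summits lay on the same side of the gene, at varied distances. All 7 pooled summits lay past the 3′ end, 210 to 612 bp downstream of the 5′ end of genes about 165 bp long. In replicate 2 all 8 U1 summits lay past the 3′ end (191 to 612 bp), and in replicate 1 this was so for 4 of 5, sup-39 being the exception with a summit 4 bp from its 5′ end. These are the strongest summits only. Weaker pooled regions had their summit inside the gene at sup-6 (rank 219) and F08H9.11 (rank 15715), and just before the start at sup-39 (rank 6136). At U5 genes, 3 of 6 pooled summits lay inside the gene, and at U6 genes 3 of 6 lay before the start. The summit shared by the U6 genes T20D3.12 and T20D3.13 counts for each of them. The U1 genes match each other at 91.9% to 100% of aligned bases and the U5 genes at 88.5% to 100%, so near-identity is common to both groups. Its part in the summit positions was not tested.

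**Figure D4:**
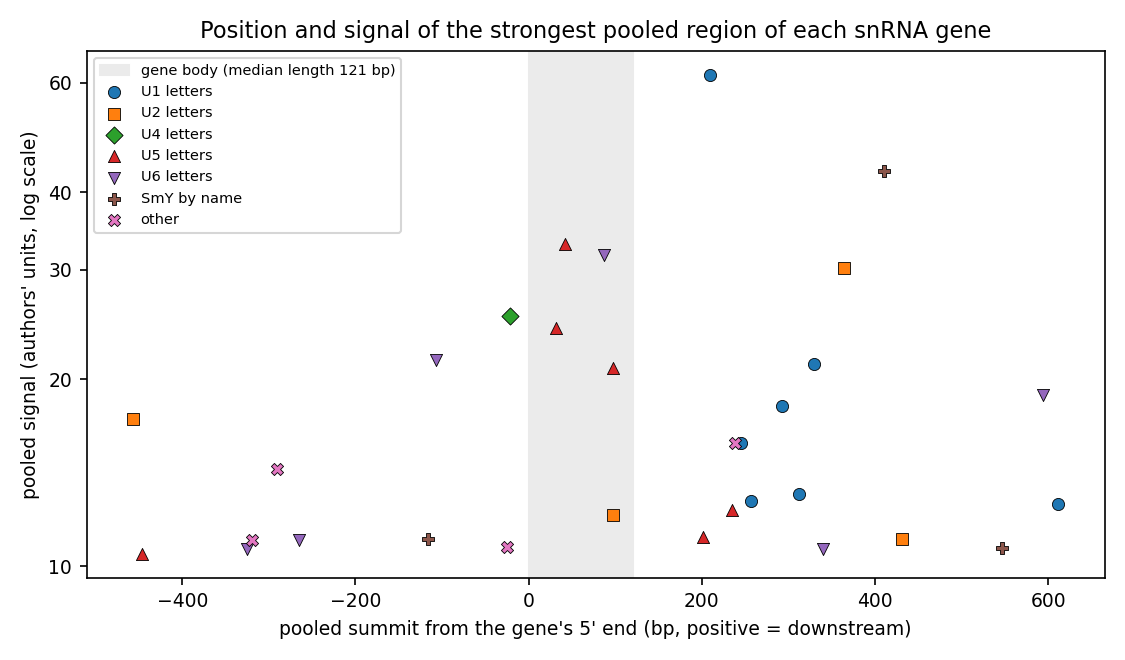
Points are the 31 snRNA genes with a pooled region, placed by the position of the strongest summit relative to the gene's 5′ end (bp, positive is downstream) and by pooled signal (the authors' units, log scale), with a marker per sequence group. The grey band is the median gene length of 121 bp, and all 7 U1 genes lie to its right, from 210 to 612 bp.

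Protein-coding promoters were near more of these regions than of candidate regions in general. Of the 39 regions, 23 (59.0%, exact 95% binomial interval 42.1 to 74.4, counting error only) had their summit in a protein-coding promoter window, against 35.1% of all pooled regions. The interval treats the regions as independent, although 10 of the 31 genes have several. Those 23 regions had a median signal of 15.8 and 12 of them were in the strongest 5000. The other 16 had a median signal of 12.8, with 6 in the strongest 5000, and they include the 2 regions of sup-6 and that of W05B2.8. High ranks were therefore found both inside and outside these windows. The W05B2.8 summit lay 1893 bp upstream of col-94, so it falls in a promoter window when 2000 bp before the start are counted. The part of a neighbouring promoter in the ranks was not tested.

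Counted by gene, 18 of the 40 snRNA genes that lie in a promoter window had a pooled region (45%), and 13 of them had one in all 3 lists. Of the 37 genes inside a protein-coding gene but away from promoters, 9 had a pooled region and 5 had one in all 3 lists, among them sup-6, W05B2.8, F38E11.11, T08B6.62 and B0213.22. Of the 22 genes between genes, 4 had a pooled region and 1, T08G5.11, had one in all 3 lists. These classes go by the 5′ end of the snRNA gene, and the summit can fall in another class. The pooled summit of T08G5.11 lay 858 bp upstream of T08G5.3, within a promoter window. F54D8.7 counts as a gene in a promoter window, but its strongest pooled summit (rank 1973) lay outside such windows. Shares of all genes in the same classes are not given here, so the 45% is not shown to be particular to snRNA genes. Whether a region in a promoter window belongs to the snRNA gene or to its neighbour was not tested.

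The 8-letter word shared by the most snRNA genes was CGGAACCC, though a minority had it. It occurred, searched on both strands in the 100 bases before the start, at 26 of the 99 snRNA genes (26.3%), against 0.166% of all nuclear genes. It occurred at 16.7% of sls- genes, 5.78% of snoRNA genes and 0.0501% of protein-coding genes. All 26 matches began between positions -74 and -56 relative to the start, with a median of -61. The 5 matches at -70 were those of the U6 genes. The match at -74, before T27E4.22, is the same stretch as that at -59 before the overlapping gene T27E4.12. Pooled regions were found near 9 of the 26 genes with the word (34.6%) and near 22 of the 73 without it (30.1%). Regions in all 3 lists were found near 7 with the word (26.9%) and 12 without it (16.4%), and neither difference was tested.

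With the third letter free, a form chosen after sequences of genes with regions had been seen, the word CGNAACCC includes CGGAACCC and occurred before 36 snRNA genes (36.4%), against 0.478% of all genes on either strand. Pooled regions were near 17 of these 36 (47.2%) and near 14 of the 63 others (22.2%), and regions in all 3 lists near 13 (36.1%) and 6 (9.52%). The 36, the 17 and the 13 each include mir-1831, which has the same word and regions as sup-39. All 3 genes near final regions have it, but only 1 of them, sup-6, has CGGAACCC. Since the free letter was chosen with such sequences seen, the count of 3 is no support for the word. The word is spread unevenly over the groups, with 11 of 12 U5, 9 of 13 U1 and 8 of 10 SmY genes, against 5 of 24 U6, 2 of 5 U4 and 0 of 20 U2 genes. Within U6, all 3 genes in all 3 lists are among the 5 with the word and none among the 19 without it. Within U1, 3 of 9 genes with the word and 2 of 4 without it were in all 3 lists. The match is a description of letters, the counts are small and their difference was not tested.

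Among protein genes that act with snRNAs, regions in promoter windows were about as frequent as in the genome. Of all protein-coding genes, 34.4% had a pooled summit in their promoter window and 10.6% had one among the strongest 5000 regions. Of the 15 genes for Sm and LSm ring proteins, 6 (40%) had such a summit and 2 (13.3%) had one among the strongest 5000. These were snr-4, through the region it shares with C52E4.8, and lsm-6 (rank 4817, signal 15.8), which encodes a protein of the ring that binds U6.

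Of 22 genes for snRNA transcription, 3′ processing and assembly, 9 (40.9%) had a summit and 3 (13.6%) had one among the strongest 5000. The highest was ints-4, for a subunit of Integrator, which cuts snRNA precursors, with rank 31 and a signal of 62.5, next to sup-6 in the pooled ranking. The others were snpc-1.1, for a SNAPc subunit (rank 3276, signal 17.1), and the Integrator gene ints-8 (rank 4924, signal 15.7). Of 37 genes for spliceosome proteins, 10 (27.0%) had a summit and 3 (8.11%) had one among the strongest 5000, namely the helicase gene mog-4 (rank 184, signal 31.4), prp-40, for a U1-associated protein (rank 3916, signal 16.6), and snu-13, for a protein that binds U4 (rank 4847, signal 15.8), although the start nearest to that summit is that of rsp-7. The shares of these protein groups lay on either side of those of all protein-coding genes, and no difference was tested.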

How the data were processed

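Per the deposited file list, the authors called ChIP-seq regions against a control, once per replicate and once on pooled reads, then filtered the pooled regions by irreproducible discovery rate (IDR) into a final set. Aligner, caller, IDR threshold and the handling of reads that fit several places are not given in the sources used. The deposited signal per region is the authors' own, on an unstated scale, and was used only within 1 list. The −log10 q values the authors deposited were turned into q values and used only as a description. Regions were 340 bp wide (350 bp in replicate 1), and the summit is the position the lists give. Read depth is unknown, since the lists hold no counts. The ce10 lists were not used here. Of the 16 mitochondrial regions, all in replicate 1, none was used.

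Genes came from Ensembl release 115 (WBcel235, which is ce11), and names of repeated copies from RefSeq. Each gene took the strongest region with a summit within 500 bp, separately in each list. Genes of at least 50 bases were aligned in pairs with Biopython 1.88, and tables were made with pandas 2.3.3 in Python 3.11.15. No test was run, since 1 group of 2 replicates has no contrast. Counts over all snRNA genes are set beside the same counts over all genes. Intervals are exact, treat regions as independent and cover counting error only. The counting was tested on simulated data, where 100 of 100 genes with a planted summit among 400 were found.

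Members, protein lists and alternatives were chosen with earlier results of these data known. Named were genes with a region in all 3 lists, those near final regions, the strongest per chromosome, those next to the 500 bp limit and up to 4 genes per protein list among the strongest 5000 regions. The genes smy-8, ZK897.3, R07E5.16 and C28A5.7, the U4 letters, the summit positions per group and the word with a free letter were chosen after their values were seen. Of the 24 genes listed for transcription and assembly 22 were found in the annotation, and of the 40 for the spliceosome 37. Alternatives were other distances, 5′ ends, overlap, stronger regions, merged loci, other promoter windows and each replicate left out. The sequences of the U5 and U6 genes are not reported here.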

Additional observations from a re-analysis of the deposited data

How the results depend on the processing

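The count of 31 snRNA genes with a pooled region was 48 within 1000 bp, 20 when the region had to overlap the gene, 15 with the strongest 5000 regions and 3 with the final list. The count of 39 in replicate 1 was 16 with the strongest 5000 regions. The count of 38 in replicate 2 was 23 by overlap and 12 with the strongest 5000. The 19 genes in all 3 lists became 12 by overlap and 10 with the strongest 5000 regions. Without replicate 1 they were 27 and without replicate 2 they were 20, so the range was 20 to 27. The promoter share of 59.0% was 33.3% with a window from 500 bp before to 200 bp after the start (all regions 19.5%) and 76.9% with one from 2000 bp before to 500 bp after (all regions 49.3%). Thus it stood above the share of all regions in each window. The replicate 2 count was 57 within 1000 bp, exactly 1.5 times the 38. With it, 25 values moved by at most 1.5 times or by less than their interval, among them those without mir-1831, which was left out as a choice made after seeing the data. No paired analysis was possible because there is 1 group and no test.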
